A study of Mus musculus with 2 samples.

Results

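The regions described here were NFKB2 regions that shared ground with an ELF3 region but had their strongest point elsewhere. A peak list gives for each region a start, an end and 1 summit, the point of highest signal. The regions were selected on measured values, the positions and widths in both lists: an NFKB2 region on chromosomes 1 to 19 was taken when it overlapped an ELF3 region under 4000 bp wide by 1 bp or more and its summit lay 250 bp or more from the nearest ELF3 summit. This rule gave 1563 regions out of 14217 in the NFKB2 list, or 11.9% of the 13098 NFKB2 regions on chromosomes 1 to 19 that lay on an ELF3 region under 4000 bp (exact 95% interval 11.4 to 12.5). They lay on 1548 ELF3 regions. They are called separated regions below, and the other regions on such ELF3 regions served for comparison: 7504 coinciding regions, with summits within 50 bp, and 4031 intermediate ones, with summits more than 50 but under 250 bp apart.

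The libraries came from primary tubular epithelial cells of wild-type mouse kidney, cultured and treated with TNFα and IFNγ. There was 1 library with an ELF3 antibody and 1 with an NFKB2 antibody, both of batch 1, and both from treated cells, so no untreated sample entered. The assay was CUT&RUN, in which a nuclease bound to the antibody cuts out the DNA around the protein. Since each antibody had a single library, replicate error is unknown and nothing was tested between antibodies. The intervals of shares and medians give the uncertainty of that share or median, with the listed regions taken as independent. How much regions differ is given by the quartiles. Those of a single region's count or ratio cover counting error only. The lists implied a mean depth of 10.1 ELF3 and 10.6 NFKB2 fragments per kb. No gene was assigned to any region, and the labelled cell type was not checked here.

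ELF3 is a transcription factor of the ETS family that is found in epithelia; ETS proteins bind DNA through a GGAA core. NFKB2 is made as a precursor that is cut to the subunit p52 when the non-canonical NF-κB pathway is active, and p52 then binds κB sites, mostly paired with RELB. A summit in such data marks where most fragments cover the DNA.

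Most NFKB2 summits lay close to an ELF3 summit, and the separated regions formed the long tail of the distances. The number of regions fell from 7399 at 0 to 50 bp to 984 at 100 to 150 bp and 162 at 200 to 250 bp (lower bound included). From there on the fall was slow, with 157 regions at 250 to 300 bp, 64 at 500 to 550 bp and 45 at 950 to 1000 bp. No gap in the distances marked the limit of 250 bp. The 4 regions at exactly 250 bp had a median of 17 NFKB2 and 44.5 ELF3 fragments, and the 4 that missed the limit by 1 bp had 21.5 and 51. Nor did the width limit fall at a gap, since the widest ELF3 region of a separated region was 3997 bp and the narrowest one left out was 4000 bp. A further 291 NFKB2 regions met the distance limit on ELF3 regions over the width limit, with a median distance of 2281 bp.

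**Figure D1:**
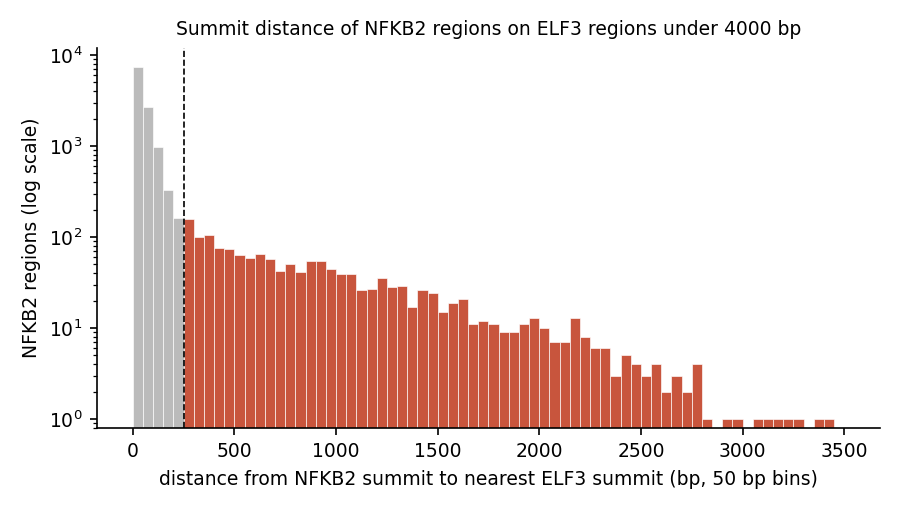
Number of NFKB2 regions (y axis, log scale) by distance from the NFKB2 summit to the nearest ELF3 summit (x axis, bp, 50 bp bins), for the 13098 regions on ELF3 regions under 4000 bp. Grey bars lie below the limit of 250 bp (dashed line) and red bars are the 1563 separated regions, which continue the tail out to 3440 bp without a gap at the limit.

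Among the separated regions the median distance was 735 bp (quartiles 416 and 1193 bp). It was 500 bp or more in 1052 of them, 1000 bp or more in 518, 2000 bp or more in 97 and 3000 bp or more in 7. The NFKB2 summit lay at the lower coordinate of the pair in 829 regions (53.0%, 50.5 to 55.5). The nearest ELF3 summit belonged to the overlapped ELF3 region in 1531, and the other 32 regions were nearer to the summit of another ELF3 region. These distances follow in part from the rule and are given as a description.

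The ELF3 summit lay within the NFKB2 interval in about as many separated regions as it did not. The NFKB2 interval covered the nearest ELF3 summit in 775 regions (49.6%, 47.1 to 52.1), against 99.1% of coinciding and 90.4% of intermediate regions. The classes are defined by the distance between summits and no listed interval is under 160 bp wide, so this contrast between classes follows in large part from the rule. The median NFKB2 interval was 856 bp in the covering regions, with summits 564 bp apart, and 369 bp in the other 788, with summits 1020 bp apart. Reaching a summit needs an interval longer than the distance to it, so the split itself favours these differences. In these, the NFKB2 interval ended a median of 702 bp short of the ELF3 summit (quartiles 98 and 1343 bp). In 162 of the 788 (20.6%), another NFKB2 region covered that ELF3 summit. Neighbouring regions in the deposited lists were at least 1001 bp (ELF3) and 1006 bp (NFKB2) apart, so signal separated by less had already been joined. A covered ELF3 summit therefore need not itself carry NFKB2 signal above the caller's limit, and a lower second maximum inside a region is not listed.

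Covering or not, most separated regions lay within the ELF3 region. The NFKB2 summit fell inside the overlapped ELF3 region in 1466 of the 1563 (93.8%, 92.5 to 94.9), and the whole NFKB2 interval did so in 1254 (80.2%). In coinciding regions the shares were 99.9% and 83.6%, and in intermediate regions 98.6% and 82.8%. The NFKB2 interval enclosed the ELF3 region in only 24. The 97 regions with the NFKB2 summit outside lay a median of 149 bp beyond the ELF3 end and were weak, with medians of 10 NFKB2 and 17 ELF3 fragments; in 2 of them the summit was inside another ELF3 region.

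The summits of separated regions lay towards the ends of the ELF3 region. The ELF3 summit was in the outer 20% at either end in 874 of 1563 (55.9%, 53.4 to 58.4), against 25.04% in coinciding regions. The NFKB2 summit, where inside, was there in 757 of 1466 (51.6%, 49.04 to 54.2), against 25.9%. In 1137 of the 1466 (77.6%) the summits lay on opposite sides of the ELF3 region's midpoint. A minimum distance between 2 points of an interval by itself moves them towards opposite ends, so these positions are a description of the choice and not a result about it.

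**Figure D2:**
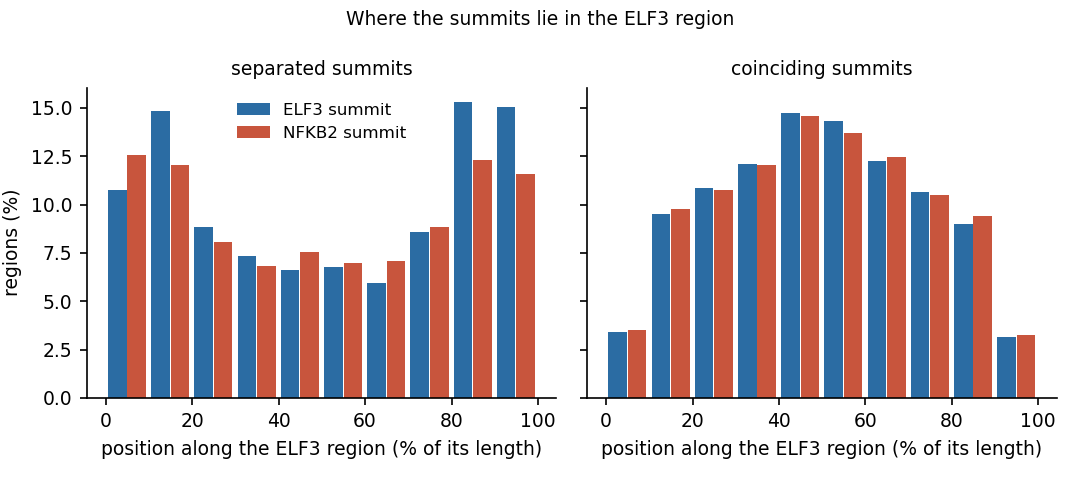
Share of regions (y axis, %) by the position of the ELF3 summit (blue) and the NFKB2 summit (red) along the ELF3 region (x axis, % of its length, from the lower coordinate, 10% bins), for the 1563 separated (left) and 7504 coinciding (right) regions. Separated summits crowd near both ends, with 874 ELF3 summits in the outer 20% at either end, while coinciding ones are most frequent in the middle.

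Separated regions were weaker in both libraries than coinciding ones. The median separated region held 13 NFKB2 fragments at its summit (quartiles 10 and 17), against 18 (14 and 23) in coinciding and 16 (12 and 21) in intermediate regions. The ELF3 region, counted at its own summit, held 32 fragments in the median (quartiles 21.5 and 48), where coinciding and intermediate regions had 46 and 43. Their ELF3 regions were wider, at a median of 1553 bp against 812.5 bp, which the distance limit favours. Their NFKB2 intervals were wider too, at 619 bp against 303 bp. The median deposited −log10 q of the NFKB2 region, the authors' value, was 5.2 for separated and 9.26 for coinciding regions.

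The lower counts were seen at every width of the ELF3 region. On ELF3 regions of 500 to 1000 bp (upper bound not included, here and for the other widths), the median separated region had 12 NFKB2 fragments (12 to 13) and 27 ELF3 fragments (25 to 30). Coinciding regions of that width had 17 and 49. On ELF3 regions of 1000 to 2000 bp the medians were 13 and 31 for separated and 18 and 49.5 for coinciding regions. Between 2000 and 4000 bp they were 15 and 41 against 18 and 51, the smallest difference of the 4 widths. The intervals of the medians did not overlap between separated and coinciding regions in any of the 4 width classes, in either library. The lists hold regions from 8 NFKB2 fragments at the lowest background upwards, so the medians lie not far above what can be listed.

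**Figure D3:**
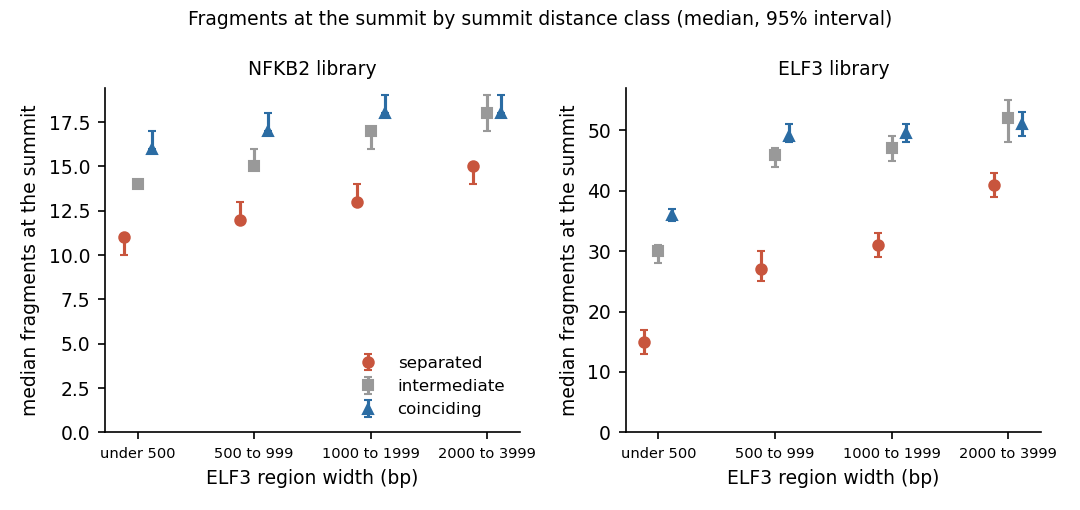
Median fragments at the summit (y axis) in the NFKB2 library (left) and the ELF3 library (right), by width of the ELF3 region (x axis, bp), for separated (circles), intermediate (squares) and coinciding (triangles) regions; bars are 95% intervals of the median over regions of 1 library. Separated regions lie lowest at every width, from 11 NFKB2 fragments under 500 bp to 15 at 2000 to 4000 bp.

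ELF3 regions that carried a separated NFKB2 region stood between those with a coinciding NFKB2 region and those with none. The groups were not exclusive, since 111 of the 1548 ELF3 regions with a separated summit also held a coinciding one and count in both. At 500 to 1000 bp the median was 27 ELF3 fragments for the 340 ELF3 regions with a separated summit, 21 for the 10716 without NFKB2 and 49 for those with a coinciding summit. At 1000 to 2000 bp the values were 31, 23 and 49.5, and at 2000 to 4000 bp 40.5, 31 and 51. Under 500 bp the order differed: the 67 ELF3 regions with a separated summit had a median of 15 fragments (13 to 17), below the 18 of those without NFKB2.

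The share of separated summits was lower at higher NFKB2 fragments within each width of the ELF3 region, up to 39 fragments. Its rise with ELF3 width largely restates the rule, since summits in a narrow region can hardly lie 250 bp apart, and the widths serve here to compare like with like. Over all widths the share was 28.6% among NFKB2 regions of 10 or fewer fragments (395 of 1382), 10.7% at 14 to 17 fragments and 5.4% at 24 to 39 fragments (116 of 2149). By width of the ELF3 region it went from 2.2% under 500 bp to 8.21% at 500 to 1000 bp, 15.3% at 1000 to 2000 bp and 28.7% at 2000 to 4000 bp (26.7 to 30.8). At 40 or more fragments it was higher again than at 24 to 39 on ELF3 regions under 2000 bp, with 20 separated regions in all. The intervals overlapped at each of these widths, and 4 of the 20 had an NFKB2 background 10 or more times its lowest level. Among regions at the lowest background in both libraries the share was lower at 40 or more fragments (2.67%) than at 24 to 39 (4.29%). Over all backgrounds, up to 39 fragments, the share on the widest ELF3 regions ran from 57.7% (50.03 to 65.1) to 15.8%. On those under 500 bp it ran from 9.17% to 0.297%. ELF3 fragments showed the same order, from 23.4% separated at 15 or fewer ELF3 fragments to 2.79% at 91 or more (29 of 1041).

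**Figure D4:**
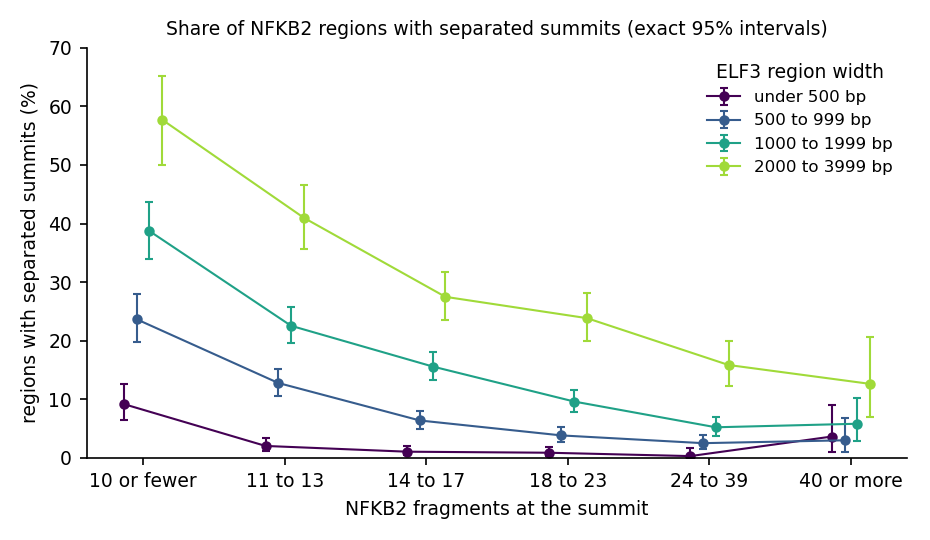
Share of NFKB2 regions with separated summits (y axis, %) by NFKB2 fragments at the summit (x axis), 1 line per width of the ELF3 region; bars are exact 95% binomial intervals. Within a width the share is highest at 10 or fewer fragments, 57.7% on the widest ELF3 regions, and is at most 12.6% at 40 or more; the order of the lines by width follows largely from the distance limit.

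Relative to ELF3, the NFKB2 signal of separated regions was a little higher in the median than that of coinciding regions, but not at the larger distances or on the widest ELF3 regions. Fragments were adjusted for the depth ratio of 1.04 and each factor was counted at its own summit; the lists do not give either factor's signal at the other's summit. The median NFKB2 over ELF3 ratio was 0.421 (0.41 to 0.432) in separated and 0.387 (0.383 to 0.392) in coinciding regions. NFKB2 was the higher one in 115 of 1563 separated regions (7.36%, 6.11 to 8.77), and over all 13629 shared regions of chromosomes 1 to 19 this was so in 5.89%. It was more than 2-fold higher in 18 (1.15%), against 0.55% of all shared regions, and more than 2-fold lower in 980 (62.7%), against 68.4%. All 3 intervals leave out the share over all shared regions (0.684 to 1.81 for the second and 60.2 to 65.1 for the third). No test was made, and the separated regions are part of that background. By width, the ratio of separated regions was 0.752 (0.598 to 0.958) on the 67 with ELF3 regions under 500 bp, where coinciding regions had 0.447 (0.438 to 0.46). The ELF3 median of these 67 was 15 fragments. No NFKB2 region at the lowest background was listed with under 8 fragments, so low ratios are kept out where ELF3 counts are low. This bears on every ratio comparison given here and below, not only on these 67. Over all widths the median ELF3 count was 32 in separated and 46 in coinciding regions. At 500 to 1000 bp the ratio of separated regions was 0.458 (0.423 to 0.504), where coinciding regions had 0.364 (0.356 to 0.374). At 1000 to 2000 bp the values were 0.416 (0.399 to 0.432) and 0.368 (0.357 to 0.377). At neither of these widths did the intervals overlap. At 2000 to 4000 bp the ratio was 0.376 (0.356 to 0.403), where coinciding regions had 0.37 (0.356 to 0.385) and the intervals overlapped.

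The ratio differed with the distance. For the 518 regions at 1000 bp or more the medians lay a little below 0.387, the median of coinciding regions of all widths. Their intervals included it. The ratio was 0.442 (0.418 to 0.461) at 250 to 500 bp and 0.454 (0.428 to 0.479) at 500 to 1000 bp. At 1000 to 2000 bp it was 0.376 (0.35 to 0.404) and at 2000 bp or more 0.348 (0.279 to 0.401). NFKB2 fragments hardly moved, with medians of 13, 13, 14 and 14 in these classes, whereas ELF3 fragments went from 30 and 28.5 to 39 and 45. The ELF3 region widened along with them, from a median of 942 bp to 3289 bp, so the 0.387 is not taken at like width. Coinciding regions had 0.368 (0.357 to 0.377) on ELF3 regions of 1000 to 2000 bp and 0.37 (0.356 to 0.385) at 2000 to 4000 bp.

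The local background is the signal that the caller sets a summit against, and its lowest level is called the floor. It was at the floor in 72.4% of separated NFKB2 regions and in 67.6% of their ELF3 regions. Both were at the floor in 52.0% (49.5 to 54.5), against 67.1% of coinciding regions, whose summits share 1 place. It reached 10 times the NFKB2 floor at 4 separated and 35 coinciding regions. With floors in both libraries, 813 separated regions remained; their median was 13 NFKB2 fragments, 29 ELF3 fragments and a ratio of 0.442 (0.426 to 0.458). Coinciding regions at the floor had 17, 44 and 0.391 (0.383 to 0.397).

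Strong separated regions were few. At 40 or more NFKB2 fragments 33 of 569 regions were separated (5.8%, 4.03 to 8.05). At the floor in both libraries it was 7 of 262 (2.67%, 1.08 to 5.43). Leaving out the 4 whose background reached 10 times the floor, 29 strong regions had a median of 49 NFKB2 and 55 ELF3 fragments. NFKB2 was the higher one in 14 of these 29. They were chosen for high NFKB2 counts, which by itself favours this, and the share was not counted among coinciding regions of 40 or more fragments. In 27 of the 29 the NFKB2 interval covered the ELF3 summit, and the median NFKB2 interval was 1599 bp.

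The 8 separated regions with most NFKB2 fragments at the floor in both libraries are described next. They need not resemble the other strong ones, as 7 of the 33 with 40 or more NFKB2 fragments were at the floor in both. The 29 strong regions above, most of them not at the floor in both, reached 133 NFKB2 fragments. Coordinates are those of the deposited lists, counted from 1, whose sequence names belong to the build GRCm39. On chromosome 7 the NFKB2 region at 19549906 to 19552624 had 88 fragments (exact Poisson interval 70.6 to 108) at its summit at 19551520. The ELF3 region at 19549801 to 19552607 covered nearly the same stretch and had 38 fragments (26.9 to 52.2) at 19550372, so the summits lay 1148 bp apart. NFKB2 was 2.22-fold higher (1.5 to 3.34), against a median ratio of 0.421.

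Chromosome 6 carried a pair of about equal strength. NFKB2 had 74 fragments at 108434600, in a region from 108434247 to 108436673. ELF3 had 80 fragments 784 bp away at 108435384, in a region from 108433162 to 108436883. In the region at 91838648 to 91840079 of chromosome 2 the counts were 68 for NFKB2 and 60 for ELF3, with summits 642 bp apart (ratio 1.09, 0.756 to 1.56). In both pairs the interval of the ratio included equal signal.

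At 3 further regions of the 8 NFKB2 was the higher one, with the interval of the ratio above 1. The region at 79868498 to 79870096 of chromosome 10 had 47 NFKB2 and 16 ELF3 fragments with summits 399 bp apart (ratio 2.81, 1.57 to 5.31). Chromosome 12 at 108758163 to 108760255 had 42 and 21, 292 bp apart (ratio 1.92, 1.11 to 3.4). Chromosome 2 at 167631423 to 167632045 had 42 and 23, 322 bp apart (ratio 1.75, 1.03 to 3.05). This last one was the narrowest of the 8, with an NFKB2 interval of 623 bp.

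The other two of the 8 differed in form. On chromosome 10 a single NFKB2 region from 81265458 to 81269025 spanned 2 ELF3 regions. Its summit, with 40 fragments at 81266146, lay 627 bp from the ELF3 summit at 81265519, where 20 ELF3 fragments were counted. The stronger ELF3 region, with 33 fragments at 81268893, lay at the far end. Against it NFKB2 was the higher one, but the interval of the ratio included equal signal (1.16, 0.714 to 1.9). The last, at 29642132 to 29643851 of chromosome 11, had 38 NFKB2 fragments against 80 for ELF3, with summits 580 bp apart, so ELF3 was the higher one (ratio 0.455, 0.301 to 0.677). In all 8 the NFKB2 interval covered the nearest ELF3 summit.

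**Figure D5:**
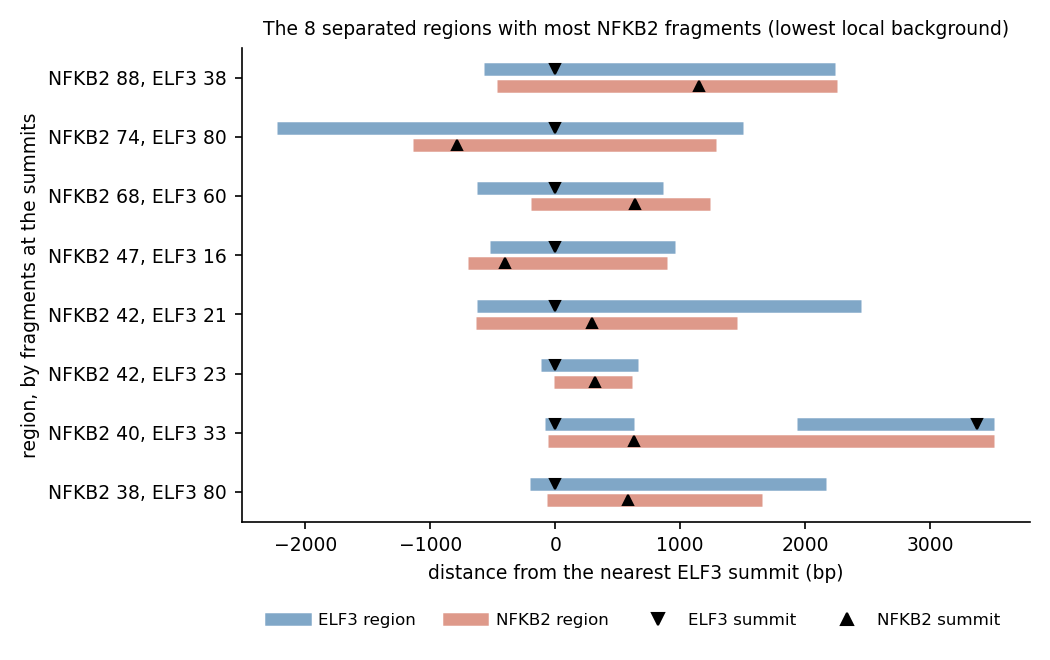
ELF3 regions (blue bars) and NFKB2 regions (red bars) of the 8 separated regions with most NFKB2 fragments at the lowest background in both libraries, drawn to scale by distance from the nearest ELF3 summit (x axis, bp); triangles mark summits and the row labels give the fragments at the NFKB2 summit and at the summit of the strongest ELF3 region overlapped. In all 8 the NFKB2 bar reaches over the ELF3 summit, and in the row with 40 NFKB2 fragments it spans 2 ELF3 regions.

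The separated regions with the highest ratio at the floor included 2 of those above, on chromosome 7 and on chromosome 10 at 79868498. The other three rested on few ELF3 fragments, as a choice by ratio favours. The region at 137529045 to 137530170 of chromosome 5 had 21 NFKB2 fragments against 7 for ELF3, with summits 355 bp apart (ratio 2.87, 1.18 to 8.0). On chromosome 4 at 139037966 to 139038144 a narrow NFKB2 region of 179 bp had 20 fragments. It lay at the lower end of an ELF3 region of 1313 bp whose summit, with 7 fragments, was 1165 bp away at the other end. The region at 98673393 to 98675794 of chromosome 15 counted 34 for NFKB2 and 12 for ELF3, 671 bp apart, and the NFKB2 region spanned 2 ELF3 regions. The ratio was above 1 in 72 of the 813 separated regions at the floor (8.86%), against 294 of 5035 coinciding regions there (5.84%). Their median ELF3 counts were 29 and 44, and the lowest listed NFKB2 count keeps out low ratios more where ELF3 counts are lower. The lower bound of the ratio was above 1 in 10 of the 813, with no allowance for the number of regions looked at. This bound was not counted over coinciding or all shared regions, so the 10 cannot be set against a usual share.

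At the 5 largest distances, an NFKB2 summit of 9 to 16 fragments lay near 1 end of a wide ELF3 region and a stronger ELF3 summit near the other. On chromosome 8, an NFKB2 region of 175 bp at 127460181 to 127460355 had 9 fragments (4.12 to 17.1). The ELF3 summit, with 57 fragments (43.2 to 73.9), was 3440 bp away at 127463748, in a region from 127460063 to 127463960. The NFKB2 region at 63657010 to 63657254 of chromosome 4 had 11 fragments, 3385 bp from an ELF3 summit of 49. Chromosome 10, at 127926992 to 127927440, had 10 and 26 at 3292 bp. Chromosome 9, at 96899281 to 96901269, had 16 and 65 at 3224 bp, and chromosome 1, at 91229108 to 91229287, had 10 and 35 at 3194 bp. None of the 5 NFKB2 intervals reached the ELF3 summit. In 4 of the 5, the same ELF3 region held a second NFKB2 region.

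Most ELF3 regions with a separated summit had no other NFKB2 region. Of the 1548, 1367 held a single NFKB2 region, 180 held 2 and 1 held 3. A coinciding NFKB2 region was also present on 111 of them (7.17%, 5.94 to 8.57), and 167 held an NFKB2 region with a distance under 250 bp. On 15 ELF3 regions 2 separated NFKB2 regions were found.

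The distance to the next NFKB2 summit was shorter for separated regions, with a median of 16.4 kb (14.3 to 18.4) against 22.9 kb (22.0 to 23.8) for coinciding ones. Among regions alone on their ELF3 region the medians were 22.1 kb (19.7 to 25.05) and 23.4 kb (22.6 to 24.6), and the intervals overlapped. The next ELF3 summit was 5.77 kb (5.52 to 6.25) away from the ELF3 summit of a separated region and 6.17 kb (6.0 to 6.38) from that of a coinciding one.

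Separated regions were found on every autosome in much the same share. It ranged from 10.1% of NFKB2 regions on chromosome 17 (58 of 575, 7.75 to 12.8) to 13.9% on chromosome 11 (155 of 1112, 11.96 to 16.1), and these intervals overlapped.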

How the data were processed

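CUT&RUN peak lists of 1 ELF3 and 1 NFKB2 library were used, grouped by the labels. The submitters' processing notes name MACS2 as the caller, and each library has its own list. Version, settings, aligner and control: not given in the sources used here. As build the notes name mm10, but the files hold sequence names of GRCm39 such as MU069434v1. Since the gene and promoter tables at hand are of GRCm38.p6, coordinates were not joined to genes, no sequence is printed, and the planned motif and gene-start shares and gene lists were not run. The regions to name were the 8 with most NFKB2 fragments and the 5 of highest ratio at the floor in both libraries, and the 5 of largest distance. Members, lists and rules were chosen with earlier results of these data known; the comparison by fragments, the split by covered summits and the strong regions were chosen after values were seen.

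The deposited lists give a score (10 times −log10 q, cut to a whole number), a fold of summit signal over local background, and −log10 p and −log10 q at the summit. Other deposited values are positions in bp. Fragments at a summit were recovered from the deposited fold and −log10 p as the whole number that gives both under the caller's Poisson model, within 0.01 in −log10 p (in proportion where it exceeds 100), for 100% of ELF3 and 99.98% of NFKB2 regions. A fragment was worth 1 and 0.964 in the lists. The spacing of the backgrounds, taken as the caller's 1 kb window, gave mean fragments of 121 and 129 bp. It gave the same depth of the background signal, 10.2 fragments per kb, in both lists. The floor, the lowest background, was taken as the median recovered background of each list, which most regions shared, within 0.2%. Recovery was right for 100% of 2993 and 2984 simulated regions, and the choice of members for 100% of 2000. These shares concern the calculation only. Whether the deposited lists follow the caller's Poisson model was not tested with these regions. Where a region overlapped several ELF3 regions, the one with most fragments under 4000 bp was its partner; 8 members overlapped more than 1, and 1 also touched a wider one. Shares have exact Clopper-Pearson, counts exact Poisson, ratios exact binomial and medians order-statistic 95% intervals. Regions are not replicates, so no p-values are given. Python 3.11.15, SciPy 1.17.1 and pandas 2.3.3 were used. Alternatives were stricter −log10 q, overlap, distance and width limits, the partner's own summit, and the floor.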

Additional observations from a re-analysis of the deposited data

How the results depend on the processing

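All settings were planned. Of 56 values, 27 stayed within their limits (1.5 times for the number, the 95% interval for others) and 29 moved; limits on −log10 q, distance, width or background leave fewer or other regions by construction. Requiring −log10 q of at least 5 or 10 in both lists left 773 or 305 of the 1563 regions; the number was 1024 with ELF3 regions under 2000 bp and 813 at the floor. The median distance, 735 bp, was 813 and 854 bp at −log10 q of 5 and 10, 519 and 989 bp with limits of 150 and 500 bp, 564.5 bp under 2000 bp and 683 bp at the floor. The share covering the ELF3 summit, 49.6%, was 58.1% and 71.5% at −log10 q of 5 and 10, 55.2% and 41.4% with limits of 150 and 500 bp, and 56.7% under 2000 bp. The share with the NFKB2 summit inside, 93.8%, was 97.5% and 97.7% at −log10 q of 5 and 10, 95.7% with an overlap of 50% of the shorter region and 90.9% under 2000 bp. Median NFKB2 fragments, 13, were 17 and 23 at −log10 q of 5 and 10. The median ratio, 0.421, was 0.455 and 0.524 at −log10 q of 5 and 10, 0.444 under 2000 bp and 0.442 at the floor. The NFKB2 width, 619 bp, was 744 and 969 bp at −log10 q of 5 and 10, and 535.5 and 743.5 bp with limits of 150 and 500 bp. Using the overlapped ELF3 region's own summit moved none of the 7 values. Settings for motifs and gene starts were not run. No paired analysis was possible because each antibody has 1 library. At the floor no listed region had under 6 ELF3 or 8 NFKB2 fragments, so a weaker NFKB2 maximum at an ELF3 summit would not be seen.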

Other observations

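The 15 ELF3 regions with 2 separated NFKB2 regions were all between 2633 and 3969 bp wide. In some, the ELF3 summit lay between the NFKB2 summits. On chromosome 13, the ELF3 region at 55658064 to 55661554 had its summit, with 41 fragments, at 55659161. NFKB2 had 30 fragments 552 bp below it and 19 fragments 2159 bp above it. On chromosome 15, the ELF3 region at 89061322 to 89065275 had 32 fragments at 89063606, with NFKB2 summits of 18 fragments 269 bp below and 16 fragments 1489 bp above. On others both NFKB2 summits lay to 1 side. The ELF3 region on chromosome 11 at 98663327 to 98666894 had 65 fragments near its lower end, and NFKB2 had 38 fragments 1131 bp and 27 fragments 2586 bp above it. On chromosome 16, the ELF3 region at 45662080 to 45665694 had 29 fragments near its upper end, and NFKB2 had 13 fragments 582 bp and 18 fragments 3063 bp below it.

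On the X chromosome, which the rule leaves out, 11 of 112 NFKB2 regions on ELF3 regions under 4000 bp had summits 250 bp or more apart (9.82%, 5.01 to 16.9). The separated region of highest count, on chromosome 2 at 98497118 to 98497537, had a recovered 51271 NFKB2 and 40045 ELF3 fragments over a background 29800 times the NFKB2 floor. The highest ratio of all separated regions, 6.84, was at 87958305 to 87960301 of chromosome 11, with 50 NFKB2 and 7 ELF3 fragments, summits 1508 bp apart and an NFKB2 background 1.53 times the floor. Both were picked after their values were seen.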
